A study of Kandelia obovata with 24 samples.

Results

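Among the unigenes of *K. obovata* leaves, 44 were high in all 4 groups labelled ABA-100 and low in the 2 groups labelled CK (10.2 ℃) and CK (-4.1 ℃). They were chosen by their TPM values from the 21523 unigenes (of 33344 in the table) that had at least 1 TPM in at least 3 libraries. TPM is a relative abundance per transcript length that gives every library the same total. For each group the mean of log2(TPM + 1) was taken, and a unigene was a member when each of the 4 ABA-100 means lay at least 1 above both of these CK means and the highest ABA-100 mean lay less than 1 above the lowest. The first condition was met by 103 unigenes, of which 59 were left out by the second. None of the 12 hub unigenes that the study annotated met the first condition, so leaving them out removed none. The choice fixed that the members differ between these 6 groups, so those differences are described here and not tested.

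Leaves were sampled from field-grown seedlings at 4 stages of a natural frost, at 10.2, -4.1, -5.3 and 9.7 ℃ in that order, from control seedlings (CK) and from seedlings meant to receive ABA at 100 mg L−1 on their leaves (ABA-100). There were 8 groups of 3 libraries, 24 in all. All groups shared one field site and one frost, the same seedlings were sampled at each stage, and the spray followed the sampling at 10.2 ℃, so the leaves labelled ABA-100 (10.2 ℃) had not yet been sprayed. The labels give the genotype as wild type for CK and as experiment type for ABA-100, which names no line. Each library also carries a code whose letter is A for CK (10.2 ℃) and CK (-4.1 ℃), B for CK (-5.3 ℃) and CK (9.7 ℃), C for ABA-100 (10.2 ℃) and ABA-100 (-4.1 ℃), and D for ABA-100 at the other 2 temperatures. After the letter comes a digit, which is 0 for both treatments at 10.2 and -5.3 ℃ and 4 for both at -4.1 and 9.7 ℃. The labels do not say what letter or digit stands for, so the letter and the treatment as titled cannot be told apart. The titles are therefore in doubt. The study used several ABA doses, of which 100 mg L−1 was the highest. If the letters stood for the 4 stages and the digits for control and ABA-100 seedlings, most groups would be titled wrongly. The pattern that is low under A, between under B and high under C and D would then be of stages, not treatments. Over all unigenes tested, the median absolute log2 difference was 0.12 to 0.22 between the 2 groups of one letter and 0.21 to 0.27 between CK and ABA-100 of one titled temperature. Between groups of separate letters it was 0.14 to 0.30, so these ranges overlap. The 2 groups of one letter also share their titled treatment, so these values cannot separate letter from treatment. Whether each title names the leaves it was given to was not tested. The members are low under letter A and high under letters C and D, and since they were chosen to be high also in leaves taken before the spray, their level cannot be assigned to ABA. The groups are written as they are titled.

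Abscisic acid (ABA) is the plant hormone that rises under water deficit and cold. In the model plant *Arabidopsis thaliana* it is bound by receptors that block protein phosphatases, which frees protein kinases to switch on transcription factors of the stress response. Ice forms outside the cells and draws water out of them, so frost and drought call on overlapping sets of genes for osmolytes, protective proteins and membrane repair. The table gives identifiers without gene names, and none of the 44 members is annotated in the study's list of hub unigenes, so no function is given to any member, the defining markers of leaf cells could not be looked up, and only a few members are named.

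Library size could not be read from TPM. The study lists the clean reads of each library, which were not used here, and the read count behind each value is unknown. Across the unigenes tested, which are not independent replicates, libraries of a group correlated at 0.963 to 0.978 (Pearson's r) and libraries from separate groups at 0.929 to 0.973. One library stood apart among the members. In replicate 1 of ABA-100 (9.7 ℃) the 44 members summed to 2866 TPM, against 1974 and 1983 TPM in replicates 2 and 3. This library also had the most unigenes above 0 of all 24, 27061 against 26613 and 26516 in replicates 2 and 3. Its code is shorter than that of every other library. Without that library 39 unigenes met the rule, 37 of them among the 44.

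Summed over the 44 members, the abundance was 509 ± 7.49 TPM in CK (10.2 ℃) and 525 ± 74.0 TPM in CK (-4.1 ℃) (SD, n = 3 each). It was 2379 ± 41.3 TPM in ABA-100 (10.2 ℃), 2416 ± 38.0 TPM in ABA-100 (-4.1 ℃), 2131 ± 77.5 TPM in ABA-100 (-5.3 ℃) and 2274 ± 512 TPM in ABA-100 (9.7 ℃) (SD, n = 3 each), with the last 1979 TPM without replicate 1. The 2 CK groups that the choice did not use lay between, with 1273 ± 87.4 TPM in CK (-5.3 ℃) and 859 ± 13.2 TPM in CK (9.7 ℃) (SD, n = 3 each). The libraries of CK (-5.3 ℃), with 1173 to 1336 TPM, lay above all those of CK (9.7 ℃), with 845 to 872 TPM, and no library of either overlapped the low or the high groups. In leaves, fewer cells that carry a transcript and less of it per cell cannot be told apart.

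**Figure D1:**
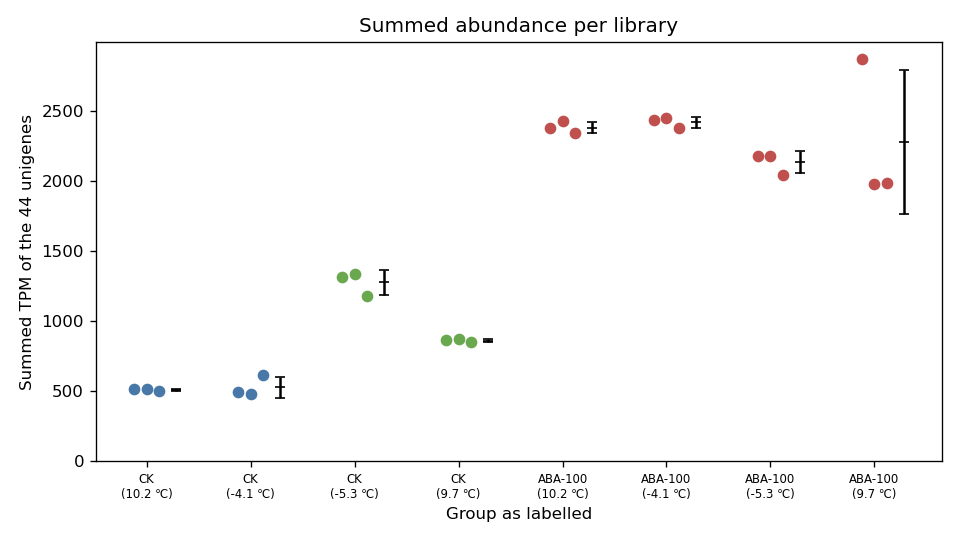
Summed TPM of the 44 unigenes (vertical axis) in each of the 24 libraries (points), by group as labelled, with the mean and SD of each group beside its points. CK (10.2 ℃) and CK (-4.1 ℃) sit between 476 and 610 TPM, CK (9.7 ℃) between 845 and 872, CK (-5.3 ℃) between 1173 and 1336, and the ABA-100 libraries between 1974 and 2866.

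The size of the step differed among the members. The mean of the 4 ABA-100 groups lay 1.10 to 4.43 above the mean of CK (10.2 ℃) and CK (-4.1 ℃) on the log2(TPM + 1) scale, with a median of 1.64, where the median of all unigenes tested was -0.08. In 41 of the 44 all 12 ABA-100 libraries were above all 6 libraries of these CK groups, which held for 3.10% of all unigenes tested and was largely set by the choice. The opposite pattern, with each ABA-100 mean at least 1 below both CK means and the same limit on the spread, was shown by 18 unigenes.

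The largest step was that of DN334_c0_g1. It had 2.53, 2.79 and 2.22 TPM in CK (10.2 ℃) and 1.23, 1.15 and 5.37 TPM in CK (-4.1 ℃). In the 12 ABA-100 libraries it had 45.0 TPM at the lowest, 73.0 at the median and 112 at the highest, which is 21.5-fold higher on the TPM + 1 scale. The low and the high libraries did not overlap, and replicate 3 stood above the other replicates of CK (-4.1 ℃). In CK (-5.3 ℃) it had 41.7, 41.9 and 22.7 TPM and in CK (9.7 ℃) 8.14, 7.60 and 9.45 TPM, so that all 6 of these libraries were above the low groups and below every ABA-100 library.

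DN8708_c0_g1 had the next largest step, 3.94 on the log2(TPM + 1) scale. It had 3.44, 4.05 and 1.47 TPM in CK (10.2 ℃), 0.90, 0.97 and 4.87 TPM in CK (-4.1 ℃), and 19.2 to 92.2 TPM in the ABA-100 libraries with a median of 54.4. Both ends of that range came from ABA-100 (9.7 ℃), with 92.2 TPM in replicate 1 against 21.7 and 19.2 TPM in the others. In CK (-5.3 ℃), with 38.3, 45.7 and 22.7 TPM, this unigene overlapped the ABA-100 libraries, while in CK (9.7 ℃), with 3.50, 2.28 and 5.20 TPM, it overlapped the low CK groups.

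**Figure D2:**
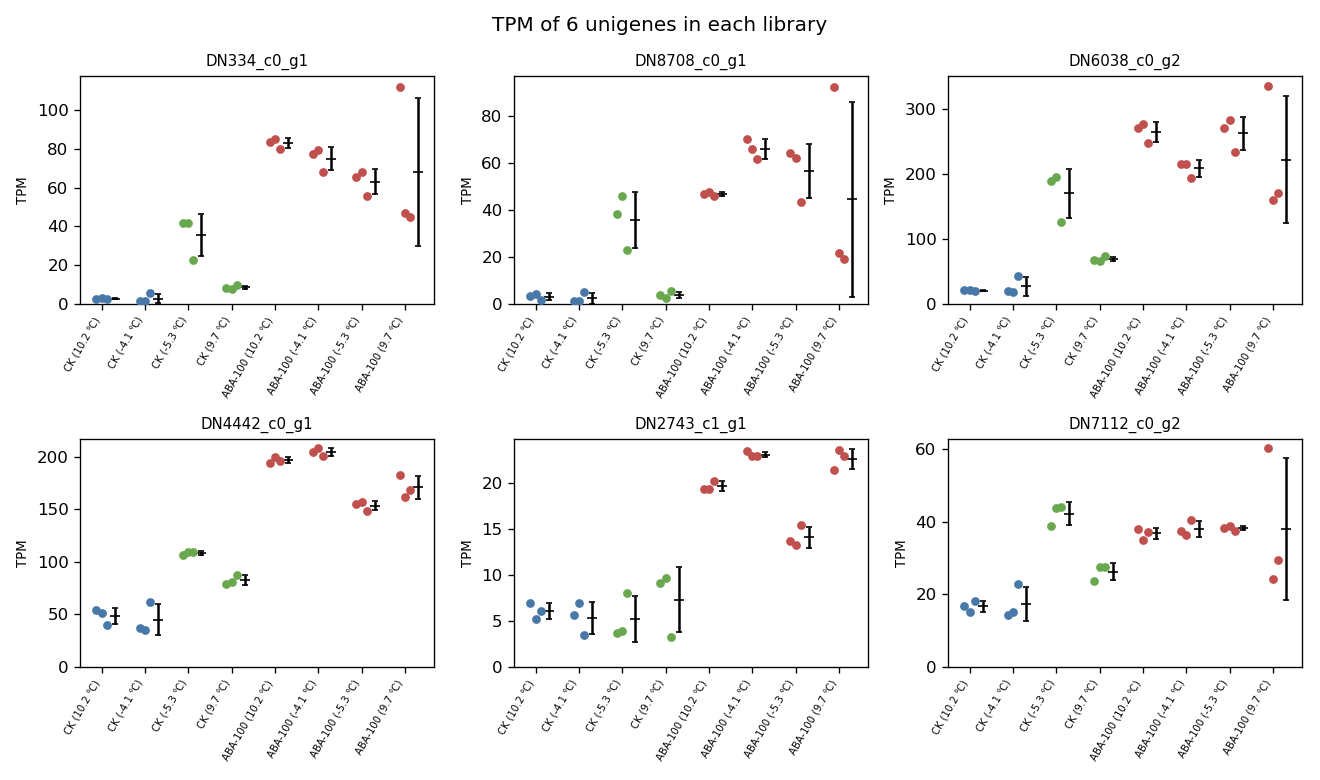
TPM (vertical axes, each from 0) of 6 members in the 24 libraries (points), by group as labelled, with the mean and SD of each group beside its points. CK (-5.3 ℃) reaches into the ABA-100 range for DN8708_c0_g1, DN6038_c0_g2 and DN7112_c0_g2 and stays near the low CK groups for DN2743_c1_g1, and replicate 1 of ABA-100 (9.7 ℃) is the highest point of DN334_c0_g1 at 112 TPM.

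The members covered a wide range of abundance. Their mean over the 24 libraries ran from 1.46 to 155 TPM with a median of 18.7, against a median of 8.14 TPM over all unigenes tested, 16 were below 10 TPM and 5 reached 100 TPM. The most abundant was DN6038_c0_g2, with 20.7, 21.2 and 18.7 TPM in CK (10.2 ℃), 19.3, 17.6 and 42.9 TPM in CK (-4.1 ℃), and 160 to 335 TPM (median 241) in the ABA-100 libraries. It was followed by DN4442_c0_g1, with 35.4 to 62.0 TPM (median 45.2) in the 6 low CK libraries and 149 to 208 TPM (median 189) in the ABA-100 libraries. Its replicates were close in every ABA-100 group, with SDs of 2.80 to 10.8 TPM (n = 3 each). The least abundant, DN10800_c0_g1, was listed at 0 in all 6 low CK libraries and also in at least 1 library of every other group, and its highest value was 7.26 TPM. It was the only member at 0 in all 6 low CK libraries, and its place among the members rests on values near the filter. In all, 3 members were at 0 in at least 1 library.

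**Figure D3:**
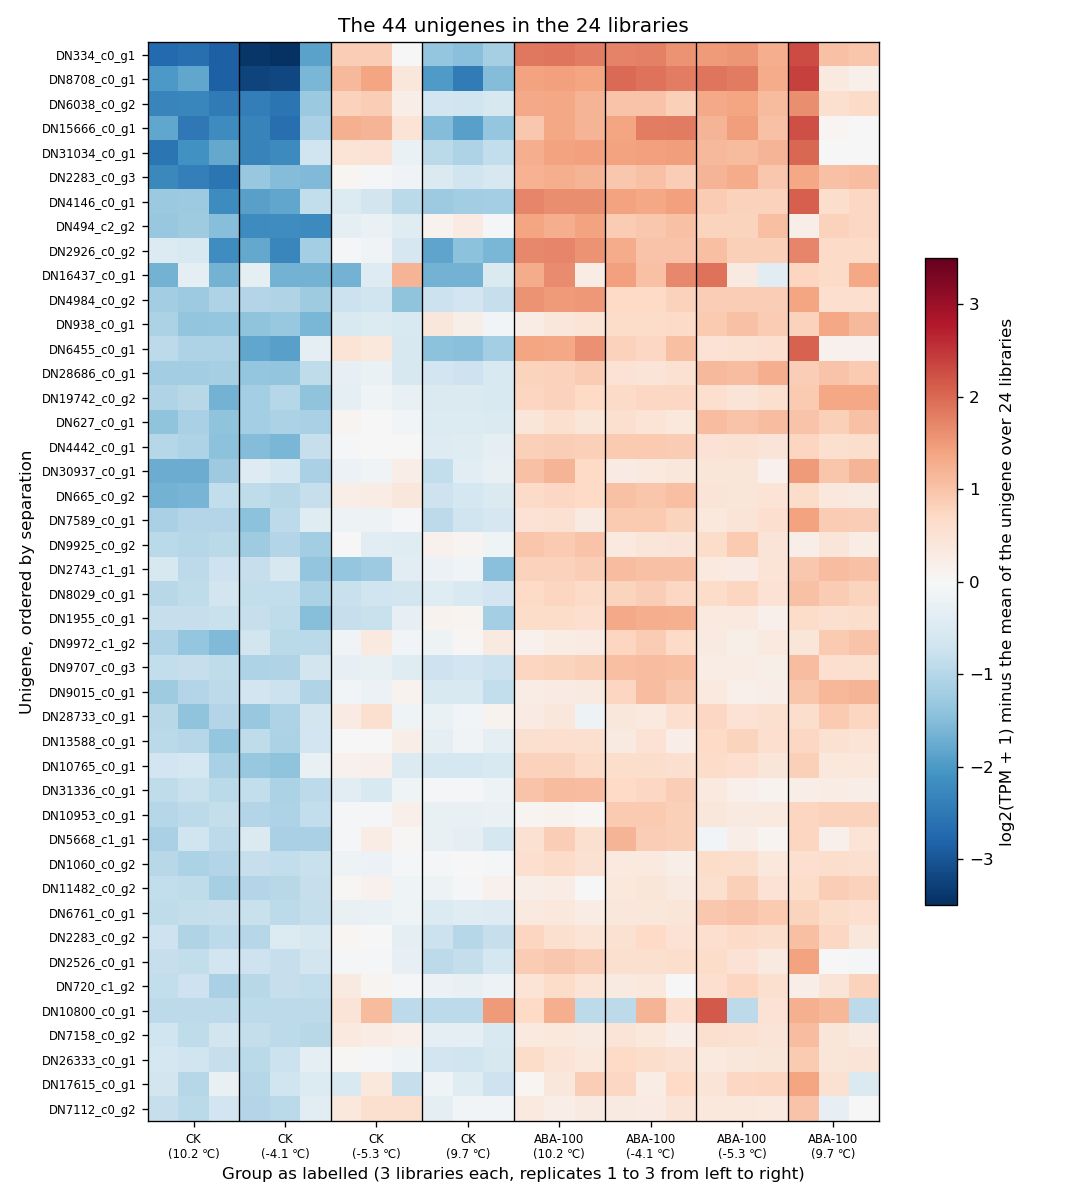
Heat map of log2(TPM + 1) minus the mean of each unigene over the 24 libraries, with the 44 unigenes as rows in order of separation (mean of the 4 ABA-100 groups minus mean of the 2 low CK groups, 4.43 at the top and 1.10 at the bottom) and the 24 libraries as columns by group as labelled. Red is above and blue below the mean of the unigene, and the columns of CK (-5.3 ℃) and CK (9.7 ℃) are paler than those of the low CK groups to their left and the ABA-100 groups to their right.

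At the threshold, DN1955_c0_g1 was just inside, with an ABA-100 spread of 0.998, and so was DN5668_c1_g1, whose smallest margin over a CK mean was 1.003. Just outside were DN412_c0_g1, with a spread of 1.001, and DN2820_c0_g3, with a margin of 0.9988.

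No ABA-100 group was the highest for most of the members. The highest mean was in ABA-100 (10.2 ℃) for 13 members, in ABA-100 (-4.1 ℃) for 12, in ABA-100 (9.7 ℃) for 11 and in ABA-100 (-5.3 ℃) for 8. The lowest was in ABA-100 (-5.3 ℃) for 14, in ABA-100 (-4.1 ℃) for 11, in ABA-100 (9.7 ℃) for 10 and in ABA-100 (10.2 ℃) for 9. The median difference between any 2 of these groups lay within -0.12 to 0.06 on the log2 scale, a range that the choice limited. Between CK (-4.1 ℃) and CK (10.2 ℃) the median difference was 0.01, with single members from -0.85 to 0.94. Leaves labelled before the spray and leaves labelled after it were thus both high for these 44 unigenes, as chosen.

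CK (-5.3 ℃) and CK (9.7 ℃) did not enter the choice, although the groups they are set against did. On a scale from the mean of the 2 low CK groups (0%) to the mean of the 4 ABA-100 groups (100%), CK (-5.3 ℃) stood at a median of 55.7% and CK (9.7 ℃) at 33.1%. Without replicate 1 of ABA-100 (9.7 ℃) these medians were 56.3% and 33.9%. CK (-5.3 ℃) was nearer the ABA-100 groups in 27 members and CK (9.7 ℃) in 10. For 25 members the 4 levels were in the same order, with the low CK means below CK (9.7 ℃), CK (9.7 ℃) below CK (-5.3 ℃), and CK (-5.3 ℃) below the lowest ABA-100 mean. No member had a CK (9.7 ℃) mean above its lowest ABA-100 mean, and 4 had such a CK (-5.3 ℃) mean.

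Against the low CK groups, the members were higher by a median of 0.97 in CK (-5.3 ℃) and 0.58 in CK (9.7 ℃) on the log2(TPM + 1) scale, where all unigenes tested had medians of 0.02 and -0.05. All 3 libraries of CK (-5.3 ℃) were above all 6 low CK libraries in 33 members, against 6.59% of all unigenes tested, and all 3 of CK (9.7 ℃) were in 23 members, against 5.19%. All 3 libraries of CK (-5.3 ℃) were below all 12 ABA-100 libraries in 25 members, against 2.20% of all unigenes, and those of CK (9.7 ℃) in 36 members, against 3.80%. The members were chosen with low values in one set of groups and high values in the other, so these counts are a description.

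**Figure D4:**
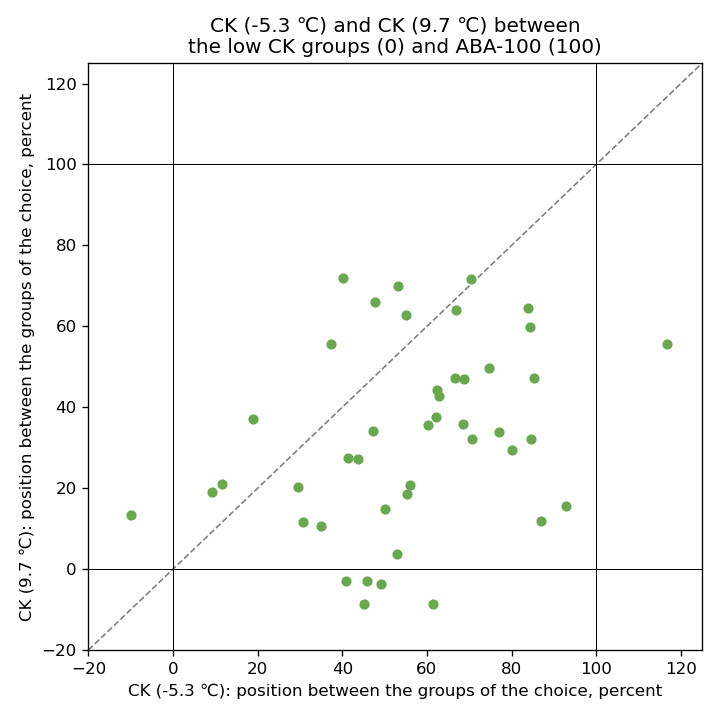
Position of each of the 44 members (points) in CK (-5.3 ℃) (horizontal axis) and CK (9.7 ℃) (vertical axis), in percent of the way from the mean of the 2 low CK groups (0) to the mean of the 4 ABA-100 groups (100), with the line of equal position dashed. Most points lie below the dashed line, with CK (9.7 ℃) below CK (-5.3 ℃) in 34 members and above it in 10. Over all unigenes tested the median difference of CK (9.7 ℃) minus CK (-5.3 ℃) was also negative, at -0.07 on the log2(TPM + 1) scale.

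By the mean of CK (-5.3 ℃) and CK (9.7 ℃), the members furthest apart on this scale were DN2743_c1_g1 at 1.78% and DN7112_c0_g2 at 86.2%. In CK (9.7 ℃) alone they were DN6455_c0_g1 at -8.69% and DN938_c0_g1 at 71.8%. DN2743_c1_g1 stayed near the low CK groups, with 3.62, 3.87 and 8.07 TPM in CK (-5.3 ℃) and 9.07, 9.66 and 3.22 TPM in CK (9.7 ℃), against 3.46 to 6.92 TPM in the low CK libraries and 13.2 to 23.6 TPM in the ABA-100 libraries. The libraries with 8.07, 9.07 and 9.66 TPM thus lay above all low CK libraries and the others did not. None of the 6 reached the ABA-100 range. DN4984_c0_g2 was next, with 15.7 to 25.9 TPM in CK (-5.3 ℃), 24.2 to 26.5 TPM in CK (9.7 ℃), 17.3 to 20.7 TPM in the low CK libraries and 65.0 to 128 TPM in the ABA-100 libraries. At the other end, DN7112_c0_g2 had 38.7, 43.9 and 44.2 TPM in CK (-5.3 ℃), within its ABA-100 range of 24.1 to 60.4 TPM (median 37.5) and above its low CK range of 14.2 to 22.7 TPM. It is the 1 member whose CK (-5.3 ℃) mean was above the mean of the ABA-100 groups. DN28733_c0_g1 had 9.47 to 16.1 TPM in CK (-5.3 ℃) and 8.89 to 11.6 TPM in CK (9.7 ℃), all above its low CK range of 3.34 to 6.44 TPM and overlapping its ABA-100 range of 9.25 to 20.6 TPM.

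The comparison of CK (9.7 ℃) with CK (-5.3 ℃) is the one comparison here that shares no group with the choice. By the titles it sets the stage after the frost against the lowest temperature in control leaves. Both groups carry the letter B, and under the other reading of the codes it would set ABA-100 against control seedlings at one stage. Of the 44 members, 6 fell and none rose from CK (-5.3 ℃) to CK (9.7 ℃), by limma with p adjusted over all 21523 unigenes (Benjamini-Hochberg, at most 0.05) and a log2 fold change beyond 1. In this comparison a log2 fold change or log2 change is the difference of the group means of log2(TPM + 1). At low TPM it is smaller in size than the log2 ratio of the TPM values. Among all unigenes tested 0.767% (165) fell and 0.242% (52) rose, and with quantile normalization 123 fell and 70 rose. The other 38 members did not pass, which does not show that they were equal. The median log2 fold change was -0.43 over the members and -0.07 over all unigenes tested. The mean was lower in CK (9.7 ℃) for 34 members, but by that negative median also for most of all unigenes tested. With median-of-ratios scaling the medians were -0.36 over the members and -0.005 over all unigenes. With quantile normalization they were -0.34 and 0.0003. None rose beyond 1 at an unadjusted p under 0.05 either.

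DN8708_c0_g1 fell most, from 35.5 ± 11.8 TPM in CK (-5.3 ℃) to 3.66 ± 1.47 TPM in CK (9.7 ℃) (SD, n = 3 each), which on the log2(TPM + 1) scale is a change of -2.96 with a standard error of 0.48 (limma, adjusted p = 0.000866). Its lowest library of CK (-5.3 ℃), 22.7 TPM, was above its highest of CK (9.7 ℃), 5.20 TPM. DN15666_c0_g1 had 17.1, 16.4 and 9.73 TPM in CK (-5.3 ℃) and 1.69, 1.07 and 1.98 TPM in CK (9.7 ℃), without overlap, which is a log2 change of -2.56 with a standard error of 0.45 (limma, adjusted p = 0.00152). In the low CK libraries it had 0.24 to 2.50 TPM, so that CK (9.7 ℃) was within that range. DN334_c0_g1 and DN6038_c0_g2 also fell, with log2 fold changes of -1.91 and -1.27 (adjusted p of 0.00186 and 0.00508 from limma). The 4 members named here are also the first 4 by the size of the step that chose them.

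The remaining 2 that fell were the nearest to the limit on adjusted p. Nearest to the limit on fold change, of the 6 that fell, was DN6038_c0_g2 at -1.27. DN2926_c0_g2 had 21.6, 20.5 and 14.5 TPM in CK (-5.3 ℃) and 5.42, 7.61 and 6.72 TPM in CK (9.7 ℃) (log2 fold change -1.38, adjusted p = 0.0177 from limma). DN6455_c0_g1 had 5.86, 5.33 and 2.35 TPM and 0.80, 0.79 and 1.15 TPM (log2 fold change -1.46, adjusted p = 0.0303 from limma). Neither overlapped between the groups. Without 1 of the 6 libraries, 4 to 6 members fell, and the calls that were lost were those of these 2, the first without replicate 1 or 2 of CK (-5.3 ℃) or replicate 1 of CK (9.7 ℃), the second without any of these and without replicate 2 of CK (9.7 ℃).

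At the adjusted p alone, with changes of any size, 17 members fell and 2 rose, where 8.31% of all unigenes fell and 2.82% rose. The 2 that rose, named after their values were seen, were DN938_c0_g1 and DN494_c2_g2. DN938_c0_g1 had 2.57, 2.70 and 2.55 TPM in CK (-5.3 ℃) and 5.72, 4.89 and 3.80 TPM in CK (9.7 ℃), a log2 change of 0.67 (limma, adjusted p = 0.00292). DN494_c2_g2 had 33.8, 37.2 and 32.2 TPM in CK (-5.3 ℃) and 47.9, 53.1 and 42.0 TPM in CK (9.7 ℃), a log2 change of 0.45 (limma, adjusted p = 0.0166). For both, CK (9.7 ℃) thus stood nearer the ABA-100 groups than CK (-5.3 ℃) did. They were the 2 members with all 3 libraries of CK (9.7 ℃) above all 3 of CK (-5.3 ℃), a pattern of 7.49% of all unigenes tested. The reverse was found in 28 members and in 22.2% of all unigenes.

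**Figure D5:**
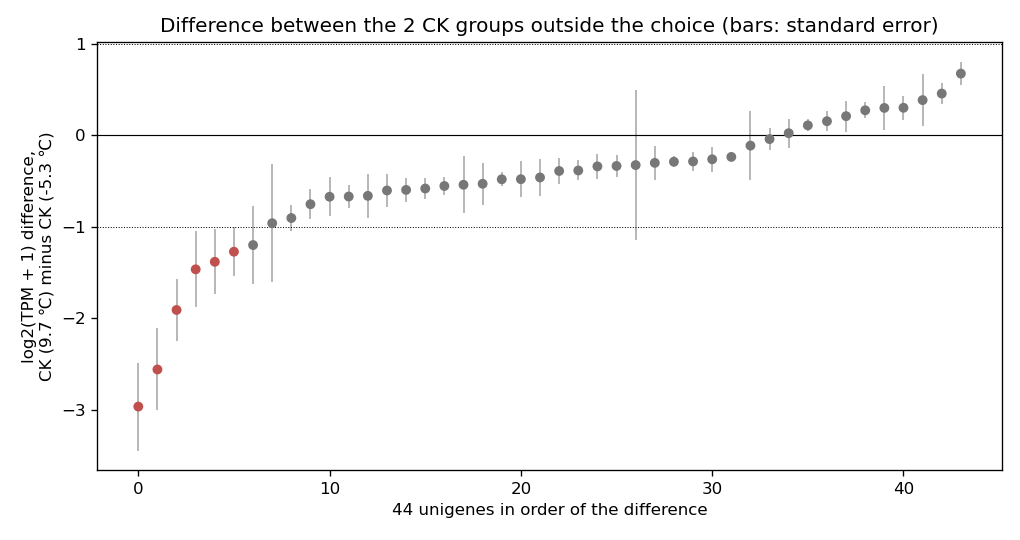
Log2(TPM + 1) difference of CK (9.7 ℃) minus CK (-5.3 ℃) for the 44 members (points, in order of the difference) with the standard error from limma as bars. The 6 red points, between -2.96 and -1.27, passed both thresholds, and dotted lines mark -1 and 1, although the highest point reaches only 0.67.

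Single libraries deviated from their group across many members. The choice used the libraries of 6 of the 8 groups through their group means, so the shares in those groups are a description. Replicate 3 of CK (-5.3 ℃) was the lowest of its group in 26 of the 44 members (59.1%), against 36.2% of all unigenes tested, and its members summed to 1173 TPM against 1311 and 1336 TPM. Replicate 3 of CK (9.7 ℃), the other group outside the choice, was the highest of its group in 23 members (52.3%), against 35.9%. Replicate 1 of ABA-100 (9.7 ℃) was the highest of its group in 28 members (63.6%), against 51.2% of all unigenes. Replicate 3 of CK (-4.1 ℃) was the highest of its group in 23 members (52.3%), against 42.3%. In ABA-100 (10.2 ℃), replicate 2 was the highest in 27 members (61.4%), against 40.9%, and replicate 3 the lowest in 25 (56.8%), against 37.1%. For the 3 members with the largest step DN334_c0_g1, DN8708_c0_g1 and DN6038_c0_g2, the libraries named from CK (-5.3 ℃), ABA-100 (9.7 ℃) and CK (-4.1 ℃) deviated in those directions. The median SD within a group was 0.07 on the log2 scale in ABA-100 (10.2 ℃), 0.16 in CK (10.2 ℃), 0.26 in CK (-4.1 ℃) and 0.28 in ABA-100 (9.7 ℃), where that of all unigenes was 0.09 to 0.15 in these groups.

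Trinity, which assembles transcripts without a genome, gives unigenes of one connected assembly graph a shared component name. The 44 members came from 43 components, and only DN2283_c0_g3 and DN2283_c0_g2 shared one. Of the members, 19 (43.2%) lay in components with more than 1 unigene, close to the 45.7% of all unigenes tested. Such unigenes can share reads, so their levels are less certain. The other 20 tested unigenes of these components had a median step of 0.23 on the log2(TPM + 1) scale, from -0.46 to 3.80, where the median of all unigenes tested was -0.08 and their upper quartile 0.13. The step was above 0 in 14 of the 20 and at least 1 in 2. The first, DN4984_c0_g1, stepped by 3.80 and missed the rule by a spread of 1.29 between its ABA-100 groups. The second, DN9707_c0_g1, stepped by 1.51 and missed both conditions, with a spread of 1.33 and a smallest margin over a CK mean of 0.67.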

How the data were processed

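Per the methods of the study, the authors cleaned the paired-end reads of 24 leaf libraries (SeqPrep, Sickle), built the unigenes de novo (Trinity) and quantified them (RSEM), with versions not given in the sources used here. The labels and the supplement name different library kits. The table holds TPM as deposited, which corrects for transcript length and sets one total per library. The read count behind a value is therefore unknown, and counting error is not given. All 24 columns were matched to samples by library code.

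The members and the unigenes to compare were chosen with earlier results of these data known. Group means of log2(TPM + 1) gave the members. CK (9.7 ℃) and CK (-5.3 ℃) were compared with limma 3.58.1 (R 4.3.3, trend in the prior variance) in one fit of all 24 libraries over 21523 unigenes, and the fit was tested on simulated data. The thresholds are those of the study, and read counts were not used here. Members were named by rule: largest step, highest and lowest abundance, largest changes, extremes of position and nearest to the threshold. The study states 3 biological replicates, but no source ties a library to a seedling, so p-values measure the spread between these libraries. Other scalings, pseudocounts, filters, fits and sets of libraries were tried. Figures were drawn with matplotlib 3.10.9.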

Additional observations from a re-analysis of the deposited data

How the results depend on the processing

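The number of unigenes that met the rule was 44, 68 with median-of-ratios scaling and 81 with a pseudocount of 0.1, which keep 42 and 40 of the 44. It was 62 with quantile normalization and 47 with group medians (42 and 35 of the 44), and 39 to 47 without 1 of the 24 libraries, where 29 members were kept in every case. From CK (-5.3 ℃) to CK (9.7 ℃), 6 members fell and 0 rose. Without the limit on fold change it was 17 and 2 (adjusted p alone), and under every other scaling, filter, pseudocount and fit 5 to 7 fell and 0 rose, with 4 to 6 and 0 without 1 library. DN6455_c0_g1 did not pass with quantile normalization (adjusted p = 0.0501 from limma) or in a fit of the 6 libraries alone (adjusted p = 0.0677 from limma). Over all unigenes tested 52 rose and 165 fell, 70 and 123 with quantile normalization, 90 and 233 with a pseudocount of 0.1, 23 and 105 in a fit of the 6 libraries alone, and 38 to 100 and 133 to 175 without 1 library, the 100 without replicate 3 of CK (9.7 ℃). The median of CK (9.7 ℃) above the low CK groups, 0.58, was 0.64 with median-of-ratios scaling and 0.69 with a pseudocount of 0.1, and between 0.54 and 0.64 without 1 library. Its position was 33.1%, and 33.9% without replicate 1 of ABA-100 (9.7 ℃), an alternative chosen after seeing the data. The cause of these shifts was not tested. Same-numbered libraries of CK (-5.3 ℃) and CK (9.7 ℃) did not deviate together (r of -0.08 to -0.02 across unigenes, no number correlating best with its own), so the numbers were taken as names only. Over all groups, 7 of 84 same-numbered pairs had an r over 0.1, with 0.28 the highest. The replicate block gave 6 members that fell and 0 that rose, and it changed no call of a member. With TPM alone, the read counts behind the lowest values are unknown.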
